A study of Mus musculus with 9 samples.

Results

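The 10 genes described here encode enzymes of glycolysis and of the step that follows it, and most of them are 1 of several isoforms of their enzyme: hexokinases Hk1 and Hk2, phosphofructokinases Pfkm and Pfkp, aldolase Aldoa, phosphoglycerate kinase Pgk1, enolase Eno2, pyruvate kinase Pkm and lactate dehydrogenase subunits Ldha and Ldhb. They were chosen by symbol, and all 10 were found among the 32531 gene rows of the count files. The study sequenced RNA from the cerebral cortex of adult, untreated control mice of the line Abcb1a-EGFP/Rpl10a (Abcb1a-TRAP ES3026). In translating ribosome affinity purification (TRAP), a tagged ribosomal protein, here Rpl10a fused to the fluorescent protein EGFP, is immunoprecipitated (IP) together with the mRNA its ribosomes carry. The line's name gives Abcb1a, a drug efflux pump of brain endothelium, as the gene whose regulatory sequence drives the fusion. All 3 groups came from this line and carry the transgene. ES IP and JL IP, with 3 libraries each, are ribosome-bound RNA, and JL input, also with 3, is RNA of the cortex before the purification. The prefixes ES and JL stand for the person who extracted the RNA, and the submitters state no other difference in purpose between their samples. No input extracted by ES was analysed here. The labels do not say which libraries came from separate or pooled mice, so p-values measure only the spread between these libraries.

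Glycolysis splits glucose into pyruvate, and lactate dehydrogenase interconverts pyruvate and lactate. Many steps have isoenzymes, products of separate genes that carry out the same reaction but differ in kinetics, in regulation and in the cells that make them. Brain endothelium is known for strong glycolysis, while in neurons and astrocytes the isoenzymes are known to be divided between cell types, with Ldhb and Eno2 as neuronal examples and Aldoc as an astrocytic one.

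Levels below are CPM, read counts set on a common library size with TMM factors over the 9 libraries. Changes are log2 fold changes with their standard error. The test was edgeR's quasi-likelihood F test, its p-values were adjusted by the Benjamini-Hochberg method across every gene tested, and a gene passed when the adjusted p was under 0.05. Gene counts per library ran from 31987470 to 46598478. The row of the ribosomal RNA precursor Rn45s took 6.04 to 12.03% of them in ES IP, 15.7 to 17.9% in JL IP and 4.83 to 5.29% in JL input. Abcb1a averaged 44.9 ± 9.21 CPM in ES IP, 466 ± 21.5 CPM in JL IP and 2.16 ± 0.484 CPM in JL input (SD, n = 3 each). The summed level of 10 endothelial markers, none of which was at 0 in any group, ran from 485 to 818 CPM in ES IP, from 4696 to 5118 CPM in JL IP and from 17.9 to 22.3 CPM in JL input. Of 10 neuronal markers, again with none at 0, the sum ran from 14806 to 16199 CPM in ES IP, from 1899 to 2429 CPM in JL IP and from 14748.5 to 15547 CPM in JL input. The ES IP libraries, labelled as endothelial cells, thus held more endothelial marker RNA than the inputs, while their neuronal sums overlapped those of the inputs. Snap25 made up most of each neuronal sum, with means of 11454 CPM in ES IP, 1373 CPM in JL IP and 10501.5 CPM in JL input. Tested singly in ES IP against JL input, 4 of the 10 neuronal markers were higher, 2 lower and 4 did not pass. The sums of 10 markers each ran from 1212 to 1430 CPM in ES IP, 910.2 to 1072 CPM in JL IP and 2652 to 3069.9 CPM in JL input for oligodendrocytes, and from 40.2 to 55.4 CPM in ES IP, 26.4 to 30.8 CPM in JL IP and 85.9 to 91.7 CPM in JL input for microglia. Mal made up more of the oligodendrocyte sum in JL IP than any other marker, with a mean of 514 CPM, against 302 CPM in JL input. Tested singly in JL IP against JL input, 2 of the oligodendrocyte markers were higher and 8 lower. Mural cell markers summed to 31.9 to 36.6 CPM in ES IP, 40.4 to 84.9 CPM in JL IP and 45.6 to 50.8 CPM in JL input. No marker of these lists was at 0 over a whole group.

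**Figure D1:**
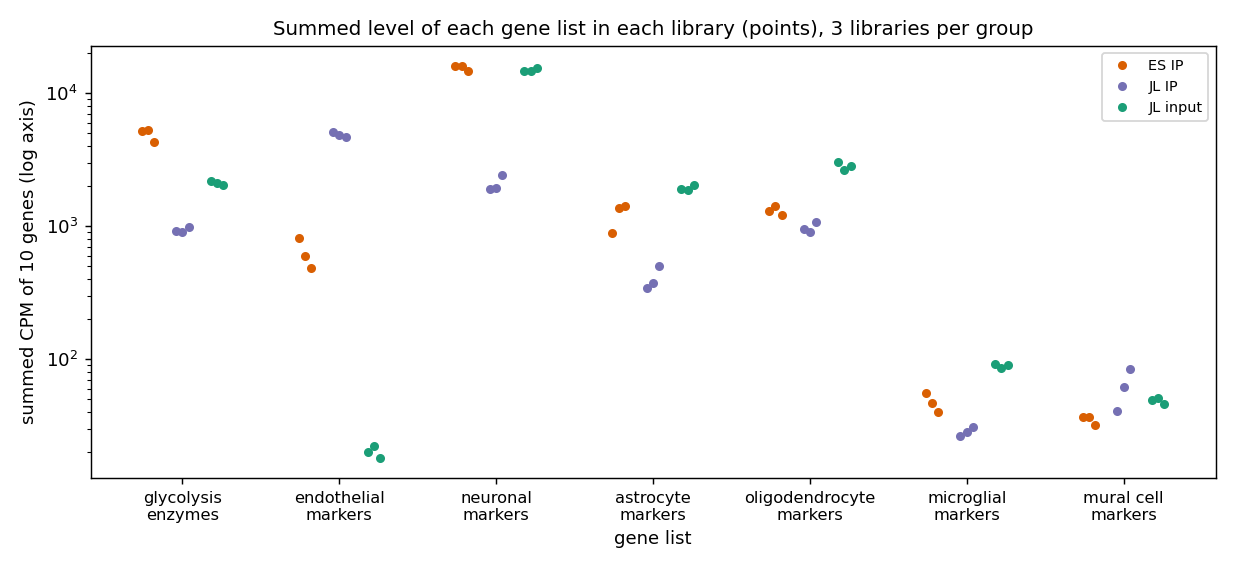
Summed CPM (log axis) of the 10 glycolysis enzymes and of the marker lists in each library of ES IP, JL IP and JL input, 1 point per library. The enzymes' sum and the neuronal sum are lowest in the 3 JL IP libraries, and the endothelial sum is highest there.

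In JL IP, the enzyme genes stood below JL input with a single exception. Between these groups 8 of the 10 genes fell, 1 rose (Ldha) and 1 did not pass the test (Hk2), where 37.4% of the 17357 tested genes fell and 36.7% rose, 74.1% in all. The falls ranged from 0.52 on the log2 scale for Pkm to 2.66 for Eno2, and the median change of the 10 genes was -1.46, against -0.09 over all tested genes. In no member did the JL IP libraries overlap the JL input libraries, which was also true of 80.8% of all tested genes. The neuronal markers differed in the same comparison, with 10 of 10 lower in JL IP, and 10 of 10 endothelial markers were higher. Their part in the enzymes' change was not tested. JL IP is ribosome-bound RNA, and JL input is RNA of the cortex before the purification. Which cells the RNA came from and its amount per cell cannot be told apart in this comparison.

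In ES IP, the enzyme genes stood above JL IP. Here 8 of the 10 rose and none fell, where 29.7% of the 16212 tested genes rose and 28.2% fell, 57.9% in all. Hk2 and Ldha did not pass, and they were also the members whose libraries overlapped between the groups; 65.9% of all tested genes had no overlap. The median change of the members was 2.26, against 0.03 over all tested genes. All 10 neuronal markers were higher and all 10 endothelial markers lower in ES IP than in JL IP, and their part in the enzymes' change was not tested. The person who extracted the RNA and whatever else differed between the sets of libraries cannot be told apart.

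In ES IP, 9 of the 10 genes also stood above JL input, by smaller amounts, and Hk2 did not pass. Over all 17477 genes tested, 26.9% rose and 25.3% fell, 52.2% in all. Hk2 was also the member whose libraries overlapped, and 64.2% of all tested genes had no overlap. The members' median change was 0.77, against 0.00 over all tested genes. With upper quartile scaling 7 of the 10 rose, and over all genes 3705 rose and 5395 fell, against 4704 and 4422 with TMM. Of the neuronal markers 4 were higher, 2 lower and 4 did not pass, while all 10 endothelial markers were higher. Each pair of these comparisons shares a group of libraries, so they are not independent of each other.

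**Figure D2:**
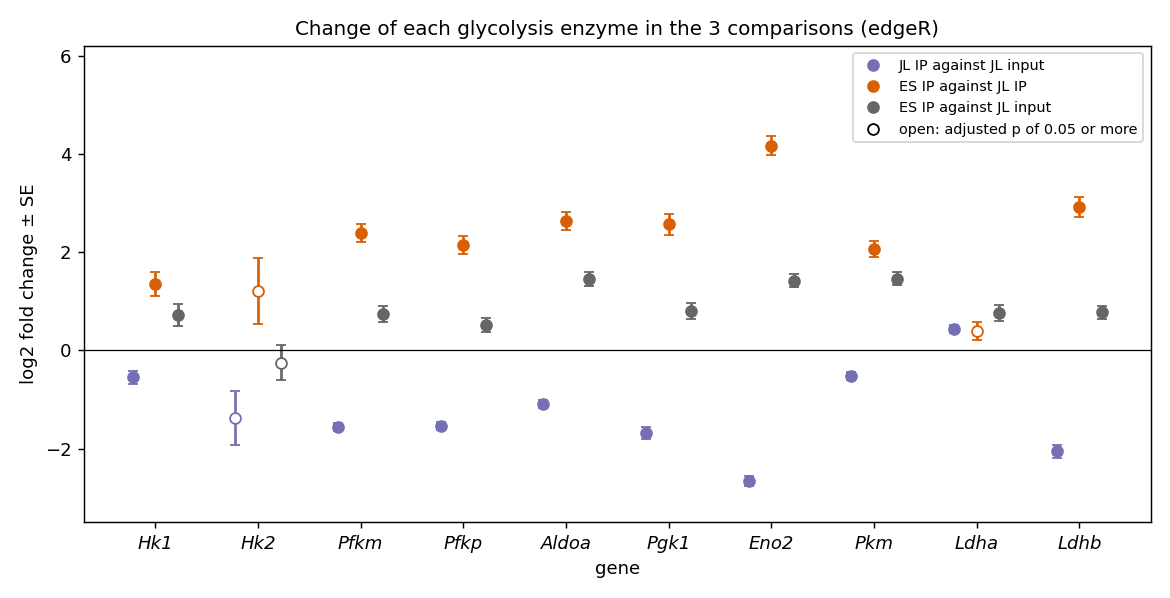
Log2 fold change with its standard error (edgeR) for each of the 10 enzyme genes in each of the 3 comparisons, in 3 colours. Filled points have an adjusted p under 0.05, and open points (Hk2 in all 3 comparisons, Ldha in ES IP against JL IP) do not.

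Hexokinase phosphorylates glucose, the first step of the pathway. Hk1, the isoform most brain cells use (chr10:62268855-62379908, minus strand, mm10), was counted at 90.1, 176 and 124 CPM in ES IP, at 42.3, 61.6 and 57.5 CPM in JL IP, and at 81.4, 79.8 and 74.6 CPM in JL input. All ES IP libraries were above, and all JL IP libraries below, the 3 inputs, and the ES IP libraries were spread the widest. Hk1 fell by 0.55 ± 0.13 in JL IP against JL input (adjusted p = 0.00503, edgeR). It rose by 1.35 ± 0.25 in ES IP against JL IP (adjusted p = 0.000802, edgeR) and by 0.72 ± 0.22 in ES IP against JL input (adjusted p = 0.0242, edgeR). The last call was lost when any 1 input library was left out, with adjusted p between 0.0691 and 0.0873, and with upper quartile scaling (adjusted p = 0.0612, edgeR).

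Hk2, an isoform best known from muscle, fat and tumours (chr6:82725025-82774454, minus strand), was the scarcest of the 10. It was counted at 0.791, 1.95 and 1.76 CPM in ES IP, 0.616, 1.16 and 0.270 CPM in JL IP, and 1.57, 2.06 and 1.74 CPM in JL input. Per kilobase of exon, Hk2 held 0.970 ± 0.231% of the hexokinase signal in ES IP, 1.08 ± 0.617% in JL IP and 1.92 ± 0.272% in JL input (SD, n = 3 each). These levels rest on 33, 89 and 78 reads in ES IP, 18, 40 and 8 in JL IP, and 80, 103 and 80 in JL input. The JL IP libraries all lay below the inputs, but the difference of -1.38 ± 0.56 did not pass (adjusted p = 0.0505, edgeR). It passed in 7 of the alternative settings, among them DESeq2 (adjusted p = 0.0247) and the fit without the second JL IP library, where the difference was -2.003 (adjusted p = 0.00729, edgeR). Without the third JL IP library the difference was -0.99, and over all alternatives the adjusted p reached up to 0.157. The differences of ES IP were 1.21 ± 0.68 from JL IP (adjusted p = 0.147, edgeR) and -0.25 ± 0.35 from JL input (adjusted p = 0.577, edgeR). The difference from JL IP was 0.83 without the third JL IP library and 1.84 without the second, and did not pass in either case.

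Phosphofructokinase commits sugar to the pathway, and its subunits come from 3 genes named for muscle (Pfkm), platelet (Pfkp) and liver (Pfkl). Pfkm (chr15:98092589-98132451, plus strand) stood at 175, 249.6 and 179.6 CPM in ES IP, 41.9, 38.9 and 41.4 CPM in JL IP, and 126, 122 and 113 CPM in JL input. Pfkp (chr13:6579768-6648777, minus strand) stood at 154, 217 and 172 CPM in ES IP, 42.0, 41.5 and 46.8 CPM in JL IP, and 129, 128 and 122 CPM in JL input. Both genes ran in the same order, with no overlap among the 3 groups.

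In JL IP against JL input, Pfkm fell by 1.56 ± 0.08 (adjusted p = 2.81e-07, edgeR) and Pfkp by 1.54 ± 0.08 (adjusted p = 2.70e-07, edgeR). In ES IP against JL IP, Pfkm rose by 2.39 ± 0.19 (adjusted p = 2.06e-06, edgeR) and Pfkp by 2.14 ± 0.18 (adjusted p = 3.25e-06, edgeR). In ES IP against JL input, Pfkm rose by 0.74 ± 0.16 (adjusted p = 0.00516, edgeR) and Pfkp by 0.52 ± 0.15 (adjusted p = 0.0181, edgeR). The last call for Pfkp was lost without any 1 input library (adjusted p between 0.0684 and 0.0822) and with upper quartile scaling (adjusted p = 0.0731, edgeR). The log2 ratio of Pfkp to Pfkm counts differed by 0.02 between JL IP and JL input (standard error 0.06), with overlapping libraries.

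The liver-type subunit gene Pfkl, which is not among the 10, behaved differently in JL IP. It averaged 83.5 ± 8.80 CPM in ES IP, 49.6 ± 6.99 CPM in JL IP and 48.9 ± 2.41 CPM in JL input (SD, n = 3 each). Its difference between JL IP and JL input was 0.02 ± 0.11 (adjusted p = 0.862, edgeR), where Pfkm and Pfkp had fallen. Per kilobase of exon, Pfkl made up 17.2 ± 1.27% of the phosphofructokinase signal in ES IP, 35.8 ± 2.24% in JL IP and 15.9 ± 1.26% in JL input. Pfkl rose in both comparisons of ES IP, by 0.83 ± 0.17 against JL IP (adjusted p = 0.00183, edgeR) and by 0.77 ± 0.12 against JL input (adjusted p = 0.00114, edgeR). Exons of Pfkp overlap those of Pitrm1, and exons of Pfkm those of Senp1, on the opposite strand. Among the other members, the same holds for Aldoa with Fam57b, while exons of Pkm overlap those of Gm49759 on the same strand. With no stated strand setting, reads from the overlaps cannot be told apart. The ambiguous share of reads averaged 2.48% in ES IP, 2.09% in JL IP and 10.8% in JL input, and its part in the members' changes was not tested. The Pitrm1 row averaged 19.1 ± 3.24 CPM in ES IP, 35.7 ± 9.27 CPM in JL IP and 29.8 ± 0.575 CPM in JL input.

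Aldolase cleaves fructose bisphosphate into the triose phosphates. Aldoa, the widely expressed isoform (chr7:126795234-126800751, minus strand), stood at 1882, 1728 and 1411 CPM in ES IP, 281, 261 and 312 CPM in JL IP, and 625, 604 and 602 CPM in JL input. The groups did not overlap, and ES IP held several times the level of JL IP in every library. Aldoa fell by 1.10 ± 0.08 in JL IP against JL input (adjusted p = 2.65e-06, edgeR), rose by 2.63 ± 0.18 in ES IP against JL IP (adjusted p = 1.20e-06, edgeR), and rose by 1.45 ± 0.15 in ES IP against JL input (adjusted p = 0.00014, edgeR).

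Aldoc, the isoform known from astrocytes and not among the 10, averaged 486 ± 64.0 CPM in ES IP, 66.3 ± 19.6 CPM in JL IP and 458 ± 27.4 CPM in JL input (SD, n = 3 each). Of the aldolase signal per kilobase of exon, Aldoc held 15.1 ± 0.825% in ES IP, 12.3 ± 2.16% in JL IP and 31.5 ± 0.829% in JL input. Both IP groups therefore held a smaller Aldoc share than the inputs, without overlap. The summed level of 10 astrocyte markers ran from 888 to 1414 CPM in ES IP, from 341 to 505 CPM in JL IP and from 1860 to 2030.0 CPM in JL input. Slc1a2 held the largest part of it, with means of 963 CPM in ES IP, 206 CPM in JL IP and 1567 CPM in JL input. Tested singly against JL input, 2 astrocyte markers were higher and 8 lower in JL IP. In ES IP 2 were higher, 6 lower and 2 did not pass. The part of astrocyte RNA in the Aldoc share was not tested.

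Phosphoglycerate kinase makes the first ATP of the pathway. Pgk1, its gene in somatic cells (chrX:106187100-106203699, plus strand), stood at 53.2, 40.9 and 33.9 CPM in ES IP, 7.29, 7.28 and 8.20 CPM in JL IP, and 24.2, 24.3 and 25.1 CPM in JL input. The 3 groups were apart in every library. Pgk1 fell by 1.69 ± 0.12 in JL IP against JL input (adjusted p = 2.98e-06, edgeR), rose by 2.57 ± 0.22 in ES IP against JL IP (adjusted p = 3.06e-06, edgeR) and rose by 0.80 ± 0.16 in ES IP against JL input (adjusted p = 0.00413, edgeR). Its level is uncertain, because 68.0% of the 50-base words of its transcript also occur in other annotated genes, mostly copies of Pgk1, and reads without a unique place were not counted. The gene is X-linked, and the libraries differed in the Y-linked gene Ddx3y, with 660, 1037 and 855 reads in ES IP, 2298, 1 and 0 in JL IP, and 3249, 1 and 0 in JL input. The X-linked RNA gene Xist had 35, 181 and 68 reads in ES IP, 51, 196 and 177 in JL IP, and 1, 986 and 1156 in JL input. These sex-linked genes thus differed within the JL groups, and Ddx3y was present in every ES IP library. That limit holds for every comparison here, and the part of sex was not tested. Pgk1 was as low in the first JL IP library as in the second.

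Enolase makes phosphoenolpyruvate, and Eno2 (chr6:124760053-124769673, minus strand) is its neuronal isoform. Eno2 stood at 1525, 1533 and 1331 CPM in ES IP, 87.1, 74.7 and 96.5 CPM in JL IP, and 576, 557 and 504 CPM in JL input. It had the widest span of the 10 genes, with every ES IP library far above every input and every JL IP library far below. Eno2 was 6.33-fold lower in JL IP than in JL input (log2 fold change -2.66 ± 0.11, adjusted p = 7.68e-08, edgeR). It was 18.0-fold higher in ES IP than in JL IP (4.17 ± 0.19, adjusted p = 6.98e-07, edgeR), a change above that of 99.0% of tested genes. In ES IP against JL input it rose by 1.42 ± 0.13 (adjusted p = 9.91e-05, edgeR). The neuronal marker sums moved in the same direction in the comparisons with JL IP, and their part was not tested. The level of Eno2 cannot be set against that of the other main isoform, Eno1, since 72.2% of the 50-base words of the Eno1 transcript occur in other annotated genes and its row held only 0.419 CPM in ES IP, 0.405 CPM in JL IP and 3.04 CPM in JL input on average.

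Pyruvate kinase closes glycolysis and yields ATP. Pkm (chr9:59656368-59679375, plus strand) stood at 548, 605 and 493 CPM in ES IP, 131, 138 and 148 CPM in JL IP, and 212, 195 and 192 CPM in JL input, without overlap among the groups. Among the genes that fell in JL IP against JL input, Pkm and Hk1 changed the least, and Pkm fell by 0.52 ± 0.08 (adjusted p = 0.000249, edgeR). It rose by 2.06 ± 0.17 in ES IP against JL IP (adjusted p = 2.47e-06, edgeR) and by 1.46 ± 0.13 in ES IP against JL input (adjusted p = 7.46e-05, edgeR). The gene makes M1 and M2 isoforms by a choice between alternative exons, and counts per gene do not separate them.

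**Figure D3:**
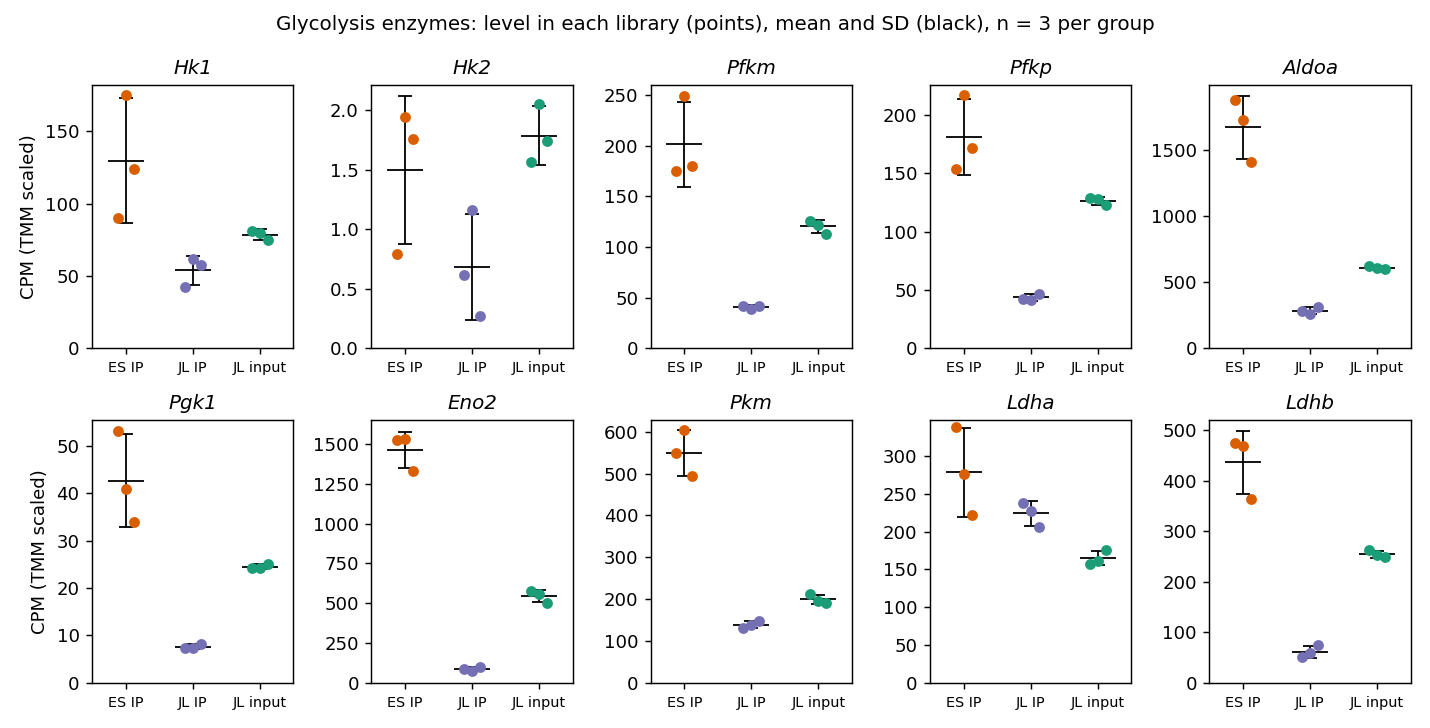
CPM (linear axis, 1 panel per gene) of each of the 10 enzyme genes in every library of ES IP, JL IP and JL input. There is 1 point per library, with the mean and SD of each group in black. Only Ldha has its JL IP libraries above the inputs, and Hk2 is the lowest in all groups.

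Lactate dehydrogenase is a tetramer of subunits from Ldha, the muscle type that is linked with making lactate, and Ldhb, the heart type that is linked with using it. Ldha (chr7:46841475-46855627, plus strand) stood at 339, 276 and 221 CPM in ES IP, 238, 227 and 206 CPM in JL IP, and 158, 161 and 176 CPM in JL input. Both IP groups were above the inputs in every library, while ES IP and JL IP overlapped. Ldha rose by 0.44 ± 0.08 in JL IP against JL input (adjusted p = 0.00114, edgeR) and by 0.76 ± 0.16 in ES IP against JL input (adjusted p = 0.00522, edgeR). Its difference between ES IP and JL IP was 0.39 ± 0.18 (adjusted p = 0.0867, edgeR), and without the third ES IP library it was 0.54 and passed (adjusted p = 0.0281, edgeR). The rise in JL IP depended on the scaling. With library size alone it was 0.18 (adjusted p = 0.05002, edgeR) and with upper quartile factors 0.19 (adjusted p = 0.0614, edgeR), settings in which the median of all tested genes moved to -0.35 and -0.34. Measured from that median, Ldha was higher by 0.53 under each of these scalings. A change of scaling moves all genes by nearly the same amount. This distance could therefore hardly change, and it is no further support for the rise.

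Ldhb (chr6:142490249-142507957, minus strand) stood at 474, 469 and 364 CPM in ES IP, 50.4, 59.0 and 73.9 CPM in JL IP, and 262, 252 and 248.9 CPM in JL input. The groups did not overlap, and JL IP was the lowest. Ldhb fell by 2.06 ± 0.13 in JL IP against JL input (adjusted p = 1.09e-06, edgeR), rose by 2.91 ± 0.21 in ES IP against JL IP (adjusted p = 1.24e-06, edgeR) and rose by 0.77 ± 0.14 in ES IP against JL input (adjusted p = 0.00209, edgeR).

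The pair thus parted in JL IP. The log2 ratio of Ldha to Ldhb counts was 2.24, 1.95 and 1.48 in the JL IP libraries and -0.73, -0.65 and -0.50 in the JL input libraries. The difference of 2.52 (standard error 0.23), a 5.72-fold change in the ratio, had p = 0.1 in a two-sided exact permutation test, which is the smallest p that 3 libraries against 3 allow (adjusted p = 0.15 over 15 ratio tests). That test took the libraries as unpaired, although the replicate numbers pair JL IP with JL input. In the ES IP libraries the ratio was -0.49, -0.76 and -0.72. It differed by -2.55 (standard error 0.24) from JL IP, with the same smallest exact p of 0.1, and by -0.03 (standard error 0.11) from JL input, where the libraries overlapped (exact permutation p = 0.8, adjusted p = 0.857). Per kilobase of exon, Ldha made up 30.4 ± 2.21% of lactate dehydrogenase signal in ES IP, 71.6 ± 5.42% in JL IP and 30.8 ± 1.72% in JL input (SD, n = 3 each). Summed over the family, that signal was 481 ± 76.2 CPM per kilobase in ES IP, 165 ± 0.730 in JL IP and 282 ± 3.03 in JL input.

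**Figure D4:**
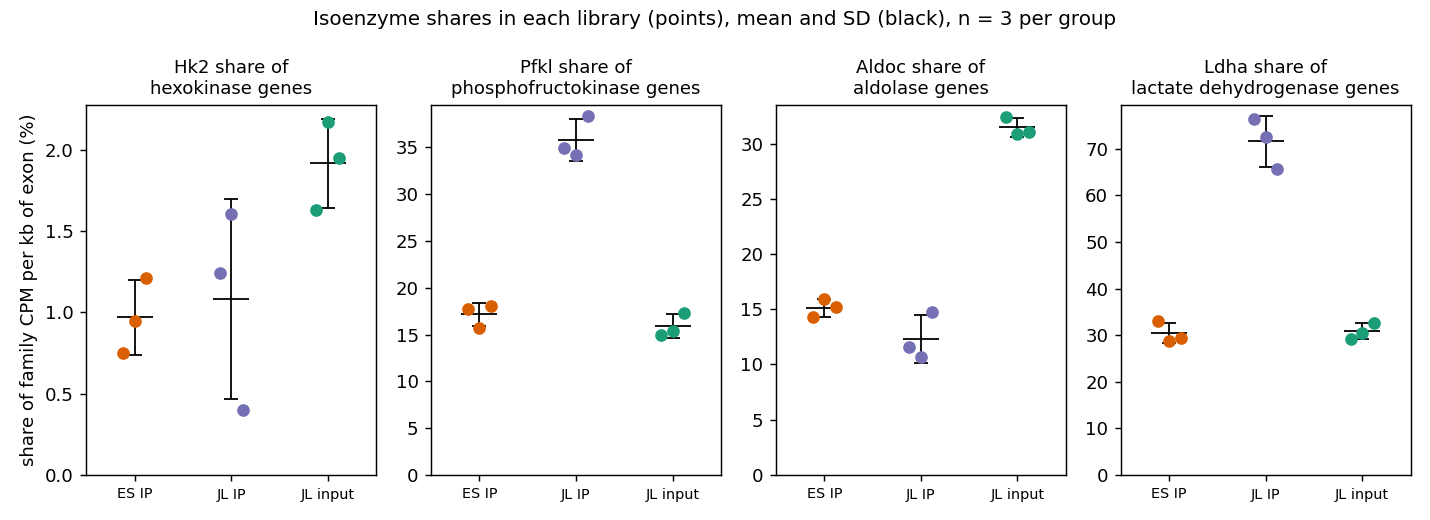
Share of each family's CPM per kilobase of exon held by Hk2, Pfkl, Aldoc and Ldha in each library (coloured points), with the mean and SD in black (n = 3 per group). Ldha and Pfkl have their highest shares in JL IP, where the Ldha share averages 71.6%, and Aldoc has its highest share in JL input.

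Because Ldha and Ldhb are the members that parted, the 250 bases upstream of their RefSeq starts are shown, from RefSeq on build GRCm38.p6. The Ldha window is chr7:46845554-46845803 on the plus strand and the Ldhb window chr6:142507958-142508207 on the minus strand, each written 5′ to 3′ along its gene. Capitals mark ACGTG on either strand (CACGT when read on the other), the core letters of the element that hypoxia-inducible factors bind; CACGTG holds it on both strands, so its matches overlap.
Ldha: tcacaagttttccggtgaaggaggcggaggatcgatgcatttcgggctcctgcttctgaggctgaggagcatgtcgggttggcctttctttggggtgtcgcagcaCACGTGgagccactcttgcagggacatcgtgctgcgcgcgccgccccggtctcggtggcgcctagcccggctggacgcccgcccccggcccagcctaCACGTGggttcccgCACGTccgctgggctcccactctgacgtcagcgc
Ldhb: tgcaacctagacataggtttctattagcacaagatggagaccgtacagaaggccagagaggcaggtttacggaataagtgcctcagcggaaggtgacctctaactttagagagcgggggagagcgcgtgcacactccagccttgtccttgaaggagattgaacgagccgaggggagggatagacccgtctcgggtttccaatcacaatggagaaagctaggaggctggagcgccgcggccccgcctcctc
The Ldha window held 5 matches in 3 runs and the Ldhb window held 0. All 10 members were matched to such a window. ACGTG was present in 4 of them (Hk2, Pfkm, Pgk1 and Ldha), against 16.57% of 32851 windows of the same length over all genes. In JL IP against JL input, Ldha alone of these rose, Pfkm and Pgk1 fell, and Hk2 was lower without passing. A link between the letters and the changes was not tested. Pfkm has 4 RefSeq starts, Aldoa 3, and Hk1, Pkm and Ldha 2 each. For these, only the start nearest the 5′ end of the annotated gene was used, while the windows over all genes included every start. The GC box letters GGGCGG, on either strand, were present in 5 of the 10 members and in 32.74% of all windows, and the TATA box letters TATAAA in 1 member (Eno2) and in 12.37% of all windows. A match describes the letters and is not a shown binding site.

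Set side by side per kilobase of exon, the members' order of levels differed between groups. In ES IP, Aldoa led with 918 ± 132 CPM per kilobase, followed by Eno2 (523 ± 41.0), Ldhb (334 ± 47.6), Pkm (211 ± 21.5), Ldha (147 ± 31.0) and Pfkm (67.2 ± 13.9). In JL IP, Aldoa again led with 156 ± 14.2 CPM per kilobase, but Ldha came next (118 ± 8.47), then Pkm (53.5 ± 3.41), Ldhb (46.9 ± 9.13), Eno2 (30.8 ± 3.90) and Pfkm (13.6 ± 0.535). In JL input the order was Aldoa (335 ± 7.02 CPM per kilobase), Eno2 (195.2 ± 13.4), Ldhb (195.1 ± 5.19), Ldha (87.0 ± 5.04), Pkm (76.9 ± 4.19) and Pfkm (40.1 ± 2.28). Pfkp, Hk1 and Pgk1 lay below Pfkm and Hk2 was last in each group. Neighbours in the order whose libraries overlapped were Pfkp and Hk1, and Hk1 and Pgk1, in ES IP, Pkm and Ldhb, and Hk1 and Pfkp, in JL IP, and Eno2 and Ldhb in JL input. These levels are lowered by an unknown amount where a transcript shares sequence with copies elsewhere, which affected 68.0% of the 50-base words of Pgk1, 34.4% of Pkm, 27.0% of Ldhb, 17.1% of Ldha, 17.1% of Pfkp (its overlap with Pitrm1), 13.9% of Aldoa and 0.25% of Eno2. Hk1, Hk2 and Pfkm shared 0%.

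Of 20 other glycolytic enzyme genes, 17 could be tested in JL IP against JL input, where 1 rose and 11 fell, with a median change of -1.41; over all tested genes 36.7% rose and 37.4% fell. Of the 11, Gapdhs lost its call with the replicate number as a block (adjusted p = 0.128, edgeR). It also lost it with no filter on low counts (adjusted p = 0.0627, edgeR) and in 4 of the fits without 1 library. Adpgk lost its call in 3 of those fits and Pgam2 in 2. Gapdh, Eno1 and Pgam1, also among the 11, shared 82.5%, 72.2% and 41.5% of their 50-base words with other annotated genes. The gene that rose was Bpgm, which makes bisphosphoglycerate, the effector that lowers the oxygen affinity of haemoglobin. It averaged 124 ± 29.0 CPM in ES IP, 205 ± 8.95 CPM in JL IP and 86.8 ± 3.28 CPM in JL input, and its rise in JL IP was 1.24 ± 0.07 (adjusted p = 5.00e-07, edgeR). Tpi1, triose phosphate isomerase, was among those that fell, by 1.20 ± 0.08 (adjusted p = 1.58e-06, edgeR), while Gpi1, the isomerase after hexokinase, differed by -0.17 ± 0.07 and did not pass (adjusted p = 0.0605, edgeR), although it passed as lower under 6 alternatives. In ES IP against JL IP, 10 of 15 tested genes rose and 2 fell (median 1.19), where 29.7% of all tested genes rose and 28.2% fell. Against JL input, 6 of 18 rose and 5 fell in ES IP (median -0.04), where 26.9% of all tested genes rose and 25.3% fell.

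Of 10 regulators of the pathway tested in JL IP against JL input, 3 rose and 5 fell, where 36.7% of all tested genes rose and 37.4% fell. The gene Pfkfb3, whose product makes the activator of phosphofructokinase and is known for its role in endothelial sprouting, averaged 41.4 ± 0.510 CPM in ES IP, 85.6 ± 16.5 CPM in JL IP and 23.8 ± 0.718 CPM in JL input. It rose by 1.85 ± 0.14 in JL IP against JL input (adjusted p = 3.09e-06, edgeR). Pdk4, a kinase that shuts off pyruvate dehydrogenase, rose there by 1.88 ± 0.18 (adjusted p = 2.10e-05, edgeR), and Pdk1, a related kinase, fell by 1.07 ± 0.09 (adjusted p = 6.86e-06, edgeR). The remaining riser was Hif1a, by 0.56, and its call depended on the scaling. It was lost with library size alone (0.29, adjusted p = 0.0841, edgeR) and with upper quartile factors (0.30, adjusted p = 0.0853, edgeR). Among the falls, Pfkfb2 lost its call in 4 of the fits without 1 library, Pdk3 in 2 and Pfkfb4 in 1. Between ES IP and JL IP, 4 of 10 tested regulators rose and 3 fell in ES IP, where 29.7% of all tested genes rose and 28.2% fell. Against JL input, 5 of 11 rose and 1 fell in ES IP, where 26.9% of all tested genes rose and 25.3% fell. With the replicate number as a block, the fall of Pdk3, the 1 that fell there, lost its call (adjusted p = 0.0648, edgeR).

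Of 5 transporters that carry glucose or lactate, 2 rose and 3 fell in JL IP against JL input, where 36.7% of all tested genes rose and 37.4% fell. In each of the comparisons of ES IP 2 rose and 2 fell, where 57.9% of all tested genes were called against JL IP and 52.2% against JL input. Slc2a1, the glucose transporter of the blood-brain barrier, stood at 600, 439 and 298 CPM in ES IP, 3016, 2628 and 3306 CPM in JL IP, and 33.3, 32.7 and 33.5 CPM in JL input. Slc2a3, the neuronal glucose transporter, averaged 110 ± 12.7 CPM in ES IP, 21.3 ± 4.75 CPM in JL IP and 175 ± 2.70 CPM in JL input. In JL IP against JL input, Slc2a1 rose by 6.49 ± 0.11 (adjusted p = 1.84e-09, edgeR) and Slc2a3 fell by 3.04 ± 0.15 (adjusted p = 3.03e-07, edgeR). Among lactate carriers, Slc16a1 rose by 3.10 ± 0.10 (adjusted p = 1.73e-08, edgeR) and Slc16a7, the neuronal one, fell by 2.005 ± 0.15 (adjusted p = 3.61e-06, edgeR). The remaining fall, that of the lactate carrier Slc16a3, lost its call with the replicate number as a block (adjusted p = 0.167, edgeR).

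The genes whose profile over the 9 libraries lay nearest to each member, among 9516 candidates, were found by Euclidean distance of centred log2 CPM. The nearest to Pfkm and to Pfkp was the same gene, Nefl, which encodes the light neurofilament subunit, at distances of 0.26 and 0.32. Nearest to Eno2 were Egr4 (0.52), Dnm1 (0.61) and Uchl1 (0.62), and nearest to Ldhb were Sept6 (0.35), Larp6 (0.39) and Rab3a (0.40). Ldha lay nearest to Fam207a (0.27), Cops7a (0.30) and Eif4a1 (0.30), Pkm to Ppid (0.33), Pgk1 to Snap47 (0.34), Hk1 to Nol6 (0.44) and Aldoa to Usp5 (0.56). No gene lay close to Hk2, whose nearest, Phka2, was at a distance of 1.14.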

How the data were processed

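For each of the 9 RNA sequencing libraries the authors deposited a file of raw counts of reads per gene. The submitters' processing notes name STAR 2.0.0e, mm10 and HTSeq. Which annotation, strand setting or filters were used was not given in the sources used here. Rows that name no gene (the summary rows HTSeq adds and 1 called unknown) entered neither the library sizes nor the tests. The share of reads in no feature averaged 17.9% in ES IP, 23.5% in JL IP and 19.3% in JL input, the ambiguous share 2.48%, 2.09% and 10.8%, and non-unique alignments numbered 1.13, 1.90 and 0.626 for each gene count. The unknown row held at most 9.20e-06% of gene counts.

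The tests used edgeR 4.0.16 under R 4.3.3 (filterByExpr, TMM, glmQLFit, glmQLFTest), each fit holding only the groups compared. Scripts were tested on simulated data. Each standard error is the log2 fold change over the square root of its F statistic. Alternatives were other scalings (RLE, library size alone, upper quartile), no filter on low counts, all 9 libraries in 1 fit, a replicate block, DESeq2 1.42.0, leaving out Rn45s, and leaving out each library. Ratios of counts used an added count of 0.5 and two-sided exact permutation tests. CPM per kilobase used exon length from GENCODE M21, which also gave the gene positions. Tigar was read from the row 9630033F20Rik through its RefSeq synonym.

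The members and gene lists were chosen with earlier results of these data known. The named genes are the 10 members, the listed other enzymes, regulators and transporters, Abcb1a and Rpl10a, and the 3 nearest profiles of each member (genes with a mean of at least 10 CPM, log2 CPM with a prior count of 2). Ddx3y and Xist were named after their values were seen. Replicate numbers were checked for pairing by the correlation of deviations from group means over 11666 genes. JL IP and JL input libraries of the same number had r = 0.344, 0.153 and 0.187, so the numbers pair them in these data, while between ES IP and the JL groups they share only a number. Chi-square statistics between replicates were 7.00 to 217 per degree of freedom, and each file was used as a separate replicate. Levels from few reads, such as those of Hk2, carry large counting error.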

Additional observations from a re-analysis of the deposited data

How the results depend on the processing

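With the replicate number as a block, the genes called came to 12431 in JL IP against JL input, where the numbers pair the libraries, 9303 in ES IP against JL IP and 8651 in ES IP against JL input, against 12859, 9381 and 9126 without it. The block changed no member's call. Of 150 results it changed 4: Gapdhs (-1.45) and Slc16a3 (-1.55) in JL IP against JL input and Pdk3 (-0.39) in ES IP against JL input lost their call, and Rpl10a (-0.90) in ES IP against JL input gained one. The 150 include the 15 isoenzyme ratios, which could change only in direction. Their exact tests cannot reach a p under 0.05 with 3 libraries per group, so they had no call to lose or gain. Between ES IP and the JL groups, same-numbered libraries had correlations from -0.073 to 0.143. Leaving out 1 library at a time gave 11477 to 13701, 7969 to 9904 and 6730 to 11332 genes called in the same order of comparisons.

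Upper quartile scaling turned the calls of ES IP against JL input to 3705 higher and 5395 lower, against 4704 and 4422, and left 7 of the 10 members higher in place of 9; the cause was not tested. Direction changed as follows. In JL IP against JL input, Pfkl was at -0.025 with RLE factors and DESeq2 and at -0.23 with library size alone or upper quartile factors, Pdk2 at -0.14 and -0.13 with the last pair, and the log2 ratio of Eno2 to Eno1 at -0.11 with an added count of 5. In 1 fit of all 9 libraries, Adpgk was at -0.035 and Pdk3 at -0.0079 in ES IP against JL IP. In ES IP against JL input, Aldoc was at -0.034 and -0.073 and Pfkfb1 at -0.011 and -0.055 with library size alone and upper quartile factors. Leaving out 1 library, the lowest and highest values were -0.084 and 0.11 for Pfkl and -0.024 and 0.063 for the ratio of Pfkp to Pfkm in JL IP against JL input. They were -0.22 and 0.31 for Adpgk, -0.11 and 0.73 for Eno1, -0.035 and 0.18 for Pdk3 and -0.59 and 0.38 for the ratio of Hk2 to Hk1 in ES IP against JL IP. They were -0.47 and 0.067 for Hk2, -1.56 and 0.44 for Pklr, -0.30 and 0.33 for Pfkfb1, -0.42 and 1.28 for Fbp1 and -0.11 and 0.034 for the ratio of Ldha to Ldhb in ES IP against JL input. None of these results had passed its test. Over single members and alternatives, 401 values kept their direction and side of the threshold, 10 lost a call, 8 gained one and 1 changed direction.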
